A study of Mus musculus with 10 samples.

Results

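A set of long noncoding RNAs was followed in cardiomyocyte RNA from infarcted hearts of mice that overexpress the kinase GRK5. The 8 members were Gm35850, Gm12295, Malat1, Neat1, Meg3, H19, Miat and Gas5, taken by matching each symbol in the GENCODE M21 annotation to the Ensembl identifiers of the count table. All 8 were found among 51789 genes, of which 8612 are annotated as long noncoding, and 7 passed the filter on low counts. Gm35850 and Gm12295 were picked with the difference between the groups already known, so their fold changes are given as a description and without a test. The other 6 are familiar long noncoding RNAs and the 5 of them that passed the filter were tested as part of the fit over all genes.

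Cardiomyocytes were isolated on day 4 after myocardial infarction (MI) from 5 TgGRK5-MI mice, which carry a Grk5 transgene confined to cardiomyocytes, and from 5 NLC-MI mice, their non-transgenic littermate controls. Both groups had MI by permanent ligation of the left coronary artery, and no sham-operated hearts were among the libraries. Each mouse gave 1 library, so the mouse is the unit of every test below, with 5 mice a group. Mice of these lines were young adults of both sexes at surgery, given as a range for the study and not for each of these 10 mice. The strain and the promoter of the transgene are not given in the sources used here.

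A long noncoding RNA is a transcript that is not translated into a known protein and acts, where its action is known, as RNA. Malat1 and Neat1 stay in the nucleus: Malat1 gathers in nuclear speckles, the stores of splicing factors, and Neat1 is the scaffold of paraspeckles, bodies that hold RNA-binding proteins. Meg3 and H19 come from imprinted domains and are made from the maternal chromosome, H19 also being the precursor of the microRNA miR-675. Miat, named for its genetic association with human myocardial infarction, carries repeats of a branch-point-like motif that bind splicing factors, and Gas5 hosts small nucleolar RNAs (snoRNAs) in its introns and its spliced transcript is degraded when it is translated. The genes Gm35850 and Gm12295 are known by their predicted-gene names alone.

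The promoters of the unnamed pair are shown because these genes had the widest difference between the groups and no described function. The windows run from 250 bases before to 50 bases after the RefSeq start site on GRCm38.p6, 5′ to 3′ on the minus strand. Gm35850 lies at chr8:90740720-90741019 and Gm12295 at chr11:65287784-65288083. Capitals mark the TATA box (TATAAA, on the gene's strand), the NFAT core (GGAAA) and the GATA motif (AGATAA), the last pair on either strand. NFAT and GATA4 are factors known from cardiac growth, and a match of letters is not a site of binding.
Gm35850 promoter: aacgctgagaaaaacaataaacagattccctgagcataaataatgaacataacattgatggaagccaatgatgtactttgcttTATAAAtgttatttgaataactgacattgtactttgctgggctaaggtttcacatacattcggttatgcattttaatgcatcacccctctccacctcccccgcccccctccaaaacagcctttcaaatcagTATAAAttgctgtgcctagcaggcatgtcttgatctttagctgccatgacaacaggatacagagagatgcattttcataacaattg
Gm12295 promoter: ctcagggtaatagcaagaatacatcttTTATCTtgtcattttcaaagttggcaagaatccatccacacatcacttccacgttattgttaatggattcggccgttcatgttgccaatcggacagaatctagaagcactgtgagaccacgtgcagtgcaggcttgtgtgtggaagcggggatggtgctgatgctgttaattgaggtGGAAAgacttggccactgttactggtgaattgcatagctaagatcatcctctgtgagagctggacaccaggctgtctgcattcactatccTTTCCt
The Gm35850 window held TATAAA at bases -167 to -162 and -36 to -31 from the start site, no GGAAA and no AGATAA. The Gm12295 window held GGAAA at -46 to -42, its complement at 45 to 49 and the complement of AGATAA at -223 to -218, with no TATAAA. Of 32851 RefSeq promoter windows of this length, 8.32% held TATAAA, 61.3% held GGAAA and 11.2% held AGATAA. For Gm12295 the RefSeq start site is 77965 bases inside the outer end of the GENCODE gene, so the window does not cover that outer end.

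Levels per length put the members over more than 4 orders of magnitude. CPM values (counts scaled to library size with edgeR's TMM factors) were divided by the kilobases of annotated exon to compare one gene with another. Malat1 was at 449 CPM per kb on average, with libraries between 222 and 785, and the highest value of another member in any library was 65.6. With these lengths H19 (38.7 CPM per kb, libraries between 9.82 and 63.7), Neat1 (32.9, between 19 and 65.6) and Gas5 (25.6, between 17.5 and 42.0) overlapped, so their order does not exceed the spread. Meg3 followed at 2.67 CPM per kb, between 1.17 and 4.92. Over both groups together, Gm12295 at 1.26 (0.315 to 2.75) overlapped Meg3 above it and Gm35850 at 0.600 (0.0512 to 1.92) below it. Within NLC-MI, Gm35850 (0.0512 to 0.248) lay apart from Gm12295 (1.46 to 2.75). In TgGRK5-MI they overlapped (0.456 to 1.92 and 0.315 to 0.929), and the order of the means was reversed (1.07 and 0.745). Pooled levels and ranks of this pair thus describe neither group. Miat was last at 0.0198 CPM per kb. Among the 872 long noncoding RNA genes that passed the filter, the ranks were 1 for Malat1, 18 for H19, 24 for Neat1, 26 for Gas5, 179 for Meg3, 324 for Gm12295 and 527 for Gm35850. Gas5 depends on the length used, since most of its 25 annotated transcripts retain introns: with the longest transcript alone its level was 37.6 CPM per kb. Neat1 was divided by 20771 bases, the length of Neat1-201, while its transcript Neat1-202 has 3004. With the shorter length its level and rank would be higher, and the counts do not tell its transcripts apart.

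Genes annotated as long noncoding took between 0.832% and 1.27% of the counts of a library, and Malat1 alone made up 20.0% to 37.6% of that. The class follows the annotated gene type, with processed transcripts included. It thus holds some genes known for proteins, such as Cct6a (159.6 CPM on average) and Ifi30 (50.5 CPM). Ranks, shares and counts of long noncoding genes hold for the class so defined. Malat1 was the long noncoding RNA with the most counts in all 10 libraries and stood between ranks 15 and 51 among all genes. Neat1 was second in 8 libraries and at rank 3 in the other 2.

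**Figure D1:**
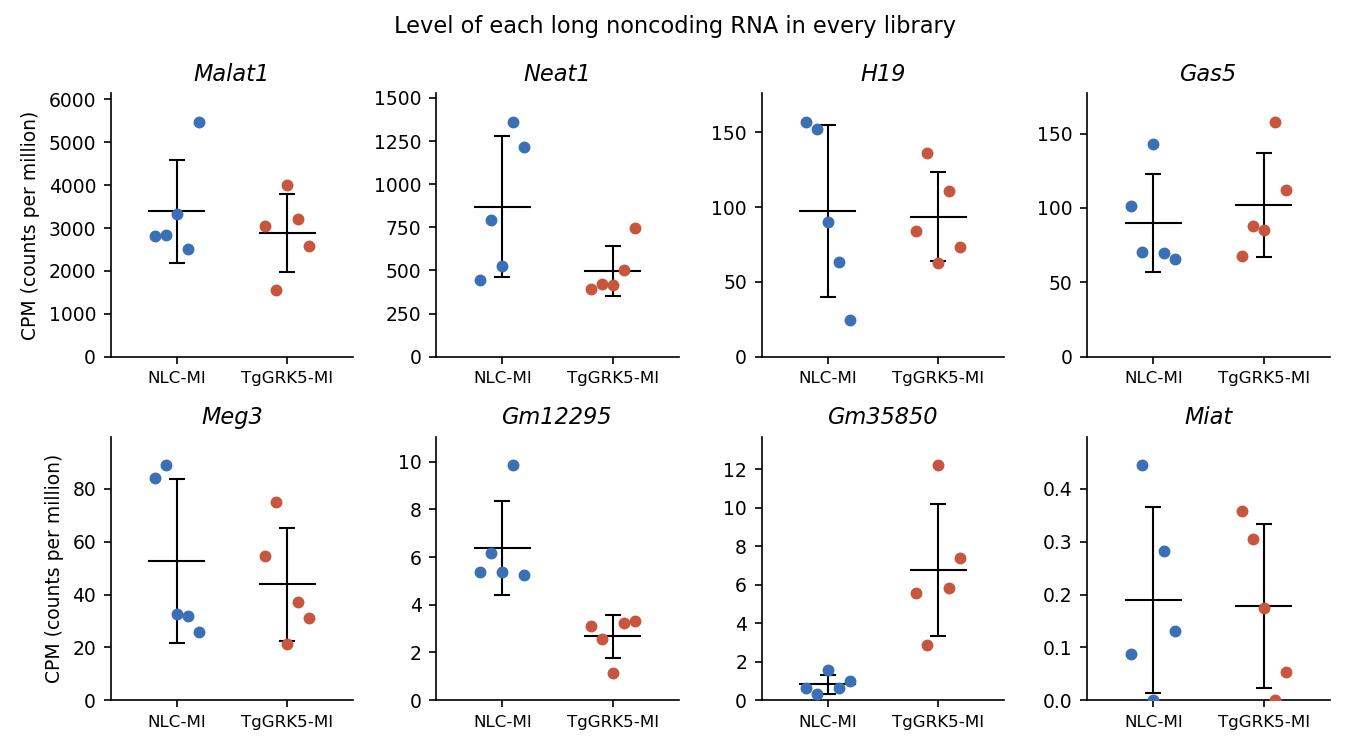
CPM of the 8 long noncoding RNAs in each library, with one panel per gene, a linear axis from 0, points for the 5 libraries of each group in order of replicate, and a bar and whiskers for the mean ± SD. The groups separate for Gm35850 (0.324 to 1.57 in NLC-MI, 2.88 to 12.2 in TgGRK5-MI) and Gm12295 (5.24 to 9.85 and 1.13 to 3.33), and overlap in the other 6 panels.

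Grk5 was checked first: its range was 46.5 to 73.1 CPM in NLC-MI, with TgGRK5-MI libraries from 552 to 1700.4 CPM, so the libraries match their labels. Libraries held 7968779 to 23381527 counts. A floor of 3 counts a library was used, equal to 0.121 CPM in the deepest and 0.393 CPM in the shallowest. The 10 cardiomyocyte markers summed to 57141 to 143600.2 CPM, beside 4031 to 24766 CPM for 8 fibroblast markers. Sums were 746 to 1633 CPM for 7 endothelial and 696 to 2353 CPM for 8 macrophage markers, so RNA of other cells was also present. These lists hold unlike genes and no whole heart was sequenced beside them, so the sums do not measure how pure the cardiomyocytes were. Neutrophil and lymphocyte marker sums stayed between 2.09 and 30.4 CPM, and Ly6g, which defines neutrophils, had a median count of 0. Every marker sum overlapped between the groups, and edgeR called 0 genes of each marker list at an adjusted p under 0.10. All 8 macrophage markers had a positive log2 fold change (median 0.21), beside 50.2% of all genes. Of 6 mural cell markers 5 had a negative one and 1 a positive one. Cspg4 and Abcc9 of these and the cardiomyocyte marker Ryr2 were lower at an unadjusted p under 0.05, as were 2.08% of all genes. In RNA from many cells, fewer cells of a type and less RNA per cell cannot be told apart.

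Gm35850 was the member with the widest gap between the groups. It is a lincRNA gene of 2 transcripts (ENSMUSG00000109870, chr8:90709458-90740775, minus strand) and shares no exon base with another annotated gene. Counts in NLC-MI replicates 1 to 5 were 14, 8, 12, 13 and 15, which is 0.617, 0.324, 1.57, 0.610 and 0.982 CPM. In TgGRK5-MI they were 125, 66, 140, 54 and 137, or 5.59, 2.88, 12.2, 5.82 and 7.36 CPM. The lowest TgGRK5-MI library stood above the highest NLC-MI library, although every library had some counts of it. The means were 0.820 ± 0.480 and 6.76 ± 3.42 CPM (SD, n = 5 each), a ratio of 8.24, and the log2 fold change was 3.16 with a standard error (SE) of 0.46. Of all 15232 genes tested, 12 (0.0788%) were called at an adjusted p under 0.10 in either direction. Of these 8 (0.0525%) were higher in TgGRK5-MI by edgeR's quasi-likelihood test, and 89 (0.584%) had groups that do not overlap with TgGRK5-MI higher. Gm35850 is within both counts because it was chosen from this comparison. Leaving out any 1 library left the log2 fold change between 2.83 and 3.44, and the 7 libraries with the most counts gave 3.08.

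Little RNA was counted around Gm35850. Its nearest annotated genes, Gm45638 at 21395 bases and Gm35963 at 18688 bases, had 0 counts in every library. On the side of Gm45638 the nearest protein-coding gene was Tox3, 361115 bases away, with means of 4.61 ± 1.34 (NLC-MI) and 5.05 ± 1.59 CPM (SD, n = 5 each; log2 fold change 0.13, SE 0.28, adjusted p = 1 by edgeR). Gm19935, 75370 bases away on the other side, never had more than 1 count. Within the TgGRK5-MI group Grk5 stood at 1509, 922, 1700.4, 552 and 1428 CPM in replicates 1 to 5. Replicate 3 was the highest for both Grk5 and Gm35850, and the order of the others differed. A relation between them was not tested.

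Gm12295 differed in the opposite direction. It is a lincRNA gene of 2 transcripts (ENSMUSG00000085162, chr11:65277654-65365798, minus strand), again without an exon base shared with another gene. NLC-MI replicates 1 to 5 had 122, 152, 41, 210 and 80 counts, at 5.37, 6.15, 5.36, 9.85 and 5.24 CPM. Those of TgGRK5-MI had 69, 59, 13, 30 and 62 counts, at 3.09, 2.57, 1.13, 3.23 and 3.33 CPM. All NLC-MI libraries were above all TgGRK5-MI libraries, with replicate 4 of NLC-MI standing apart at the top and replicate 3 of TgGRK5-MI at the bottom. The means were 6.40 ± 1.97 and 2.67 ± 0.909 CPM (SD, n = 5 each), and the log2 fold change was -1.26 with an SE of 0.30. Over all genes 4 (0.0263%) were lower in TgGRK5-MI at an adjusted p under 0.10 and 64 (0.420%) had groups that do not overlap with TgGRK5-MI lower, Gm12295 being in the second count only. Without 1 library in turn its log2 fold change was between -1.35 and -1.04.

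The gene next to Gm12295, 7665 bases away on the same strand, is Myocd, whose product myocardin is a cofactor of serum response factor in heart and smooth muscle. Myocd was at 17.2, 25.6, 58.1, 44.5 and 37.3 CPM in NLC-MI replicates 1 to 5 and at 29.9, 12.5, 34.5, 32.1 and 23.8 CPM in the TgGRK5-MI replicates. These values overlap, and edgeR gave a log2 fold change of -0.46 (SE 0.33, adjusted p = 1). The ratio of Gm12295 to Myocd in CPM ran from 0.0923 to 0.313 in NLC-MI and from 0.0327 to 0.206 in TgGRK5-MI, so the ratio overlapped where Gm12295 alone did not. On the far side, Map2k4 at 322445 bases had a log2 fold change of 0.08 (SE 0.25, adjusted p = 1 by edgeR).

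**Figure D2:**
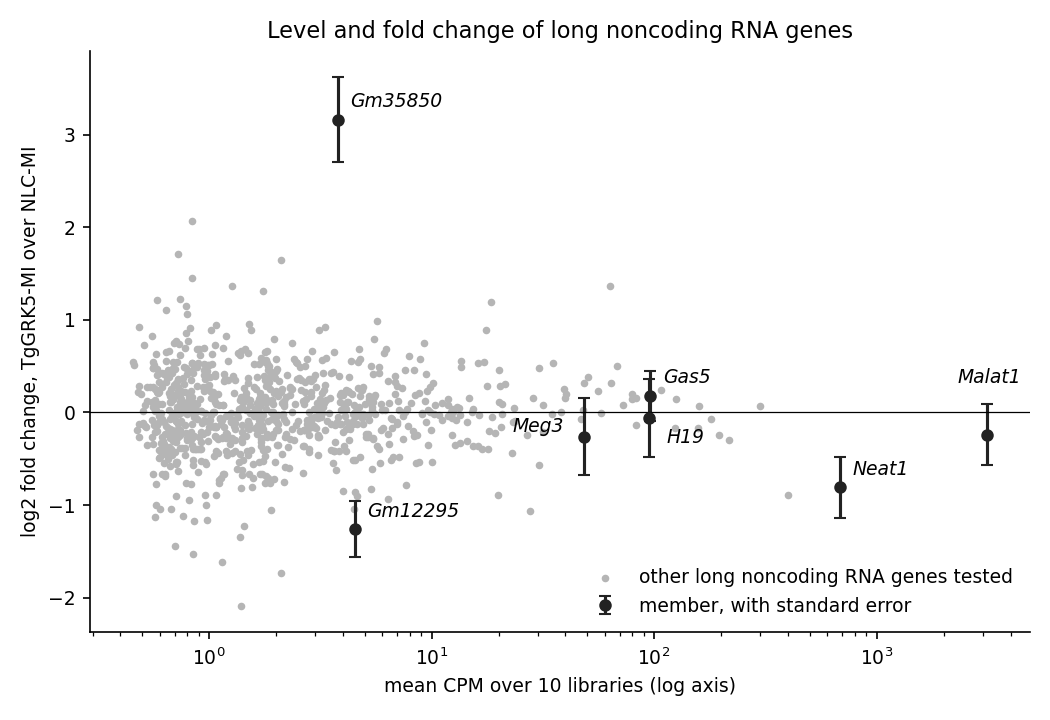
Log2 fold change of TgGRK5-MI over NLC-MI against the mean CPM over 10 libraries (log axis) for the 872 long noncoding RNA genes tested, with the 7 members that passed the filter in black with their standard errors. Gm35850 at 3.16 lies above all other points, Gm12295 at -1.26 is among the lower ones, and the 5 others lie between -0.81 and 0.18.

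Across the 872 long noncoding RNA genes tested, Gm35850 was the single gene past an adjusted p of 0.10 in edgeR's test, and it counts here only as a description. At an unadjusted p under 0.05 there were 55 (6.31%), 29 higher and 26 lower, beside 586 (3.85%) of all genes, of which 269 were higher (1.77%) and 317 lower (2.08%), and 494 (3.65%) of 13524 protein-coding genes. Their groups did not overlap for 16 (1.83%), beside 153 (1.00%) of all genes. The median log2 fold change was 0.00 for the long noncoding and for the protein-coding genes, with a median absolute value of 0.25 and 0.15. The long noncoding genes were also lower, at a median of 1.70 CPM against 22.4, and more variable, with a median residual SD of 0.52 against 0.37 on the log2 scale. The genes with the smallest p beside Gm35850 and Gm12295 were Gm11967 (log2 fold change 1.65, adjusted p = 0.166), Mhrt (1.36, adjusted p = 0.261) and 5830444B04Rik (1.31, adjusted p = 0.478), all from edgeR.

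Malat1 was high in every library and did not separate the groups. The gene (ENSMUSG00000092341, chr19:5795690-5802672, minus strand) was at 2814, 2833, 3331, 2512 and 5479.7 CPM in NLC-MI replicates 1 to 5. TgGRK5-MI replicates followed at 3049, 1551, 4008, 3205 and 2584 CPM. NLC-MI replicate 5 was the highest and TgGRK5-MI replicate 2 the lowest, and the rest were mixed. The means were 3394 ± 1202 and 2879 ± 903 CPM (SD, n = 5 each). The log2 fold change was -0.24 (SE 0.33, 95% interval -1.0 to 0.53, adjusted p = 1 by edgeR), and the two-sided exact permutation test gave p = 0.468. In the 7 deepest libraries the log2 fold change was -0.52, and it was -0.01 without NLC-MI replicate 5. Of 20 proteins of nuclear speckles and splicing, all tested, 0 were called by edgeR at an adjusted p under 0.10 and 0 at an unadjusted p under 0.05, and their median log2 fold change was 0.02. The pair with the highest level per length was Srsf5 (log2 fold change -0.01) and Srsf2 (0.02).

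Neat1 was lower on average in TgGRK5-MI, by a difference that did not pass the adjusted threshold. The gene (ENSMUSG00000092274, chr19:5824708-5845478, minus strand) lies beside Malat1 on the same strand. Its levels were 444, 794, 527, 1362 and 1217 CPM in NLC-MI replicates 1 to 5. In TgGRK5-MI they were 395, 421, 417, 505 and 747 CPM. Replicates 2, 4 and 5 of NLC-MI were above every TgGRK5-MI library, and replicates 1 and 3 lay within their range. The means were 869 ± 409 and 497 ± 146 CPM (SD, n = 5 each), and the log2 fold change was -0.81 (SE 0.33, 95% interval -1.56 to -0.05). The unadjusted p of edgeR's test was 0.0302, as for 3.85% of all genes at its threshold of 0.05, the adjusted p was 1, and the two-sided exact permutation test gave p = 0.0714. Leaving out single libraries moved the log2 fold change between -1.0 and -0.58. Short RNA genes annotated inside Neat1 held a further 1218 counts, 0.988% of its own.

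The proteins that Neat1 gathers in the paraspeckle were tested in the same fit. Counts are per gene, so the change of Neat1 cannot be assigned to one of its transcripts. Of 20 listed paraspeckle proteins, 0 were called at an adjusted p under 0.10 and 1 was lower at an unadjusted p under 0.05 in edgeR's test, the chromatin remodeller Smarca4 (133 ± 17.6 and 108 ± 7.21 CPM, SD, n = 5 each; log2 fold change -0.30). Of all genes 2.08% were lower at that unadjusted threshold. Nono and Sfpq, RNA-binding proteins on which paraspeckles depend, had log2 fold changes of 0.29 (SE 0.23) and -0.07 (SE 0.16). Hnrnpa1 and Hnrnpk had the highest levels per length in the list, at log2 fold changes of -0.02 and 0.03. For Neat1 and Malat1, the deviations of log2 CPM from the group mean had r = 0.13 and Spearman's rho = -0.01 over 10 libraries (exact permutation p = 0.750 and 0.984, adjusted p = 0.915 and 0.984 over 21 pairs). The ratio of Neat1 to Malat1 ran from 0.158 to 0.542 in NLC-MI and from 0.104 to 0.289 in TgGRK5-MI. Frmd8, a protein-coding gene 4224 bases beyond Neat1, had a log2 fold change of -0.10 (SE 0.33) and did not pass the test (adjusted p = 1 by edgeR).

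Meg3 varied more among mice than between groups. Its gene (ENSMUSG00000021268, chr12:109541001-109571726, plus strand) starts 5 bases from a RefSeq start site whose window, chr12:109540746-109541045, is shown with TATAAA and GGAAA in capitals (either strand for the second), as the promoter of an imprinted gene with a TATAAA match at -25 to -20.
Meg3 promoter: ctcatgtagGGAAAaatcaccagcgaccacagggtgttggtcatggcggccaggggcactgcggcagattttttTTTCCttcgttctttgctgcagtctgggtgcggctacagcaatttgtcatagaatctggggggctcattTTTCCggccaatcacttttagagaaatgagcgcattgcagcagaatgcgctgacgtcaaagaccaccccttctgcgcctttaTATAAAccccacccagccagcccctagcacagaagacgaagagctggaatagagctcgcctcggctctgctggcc
NLC-MI replicates 1 to 5 had 84.1, 89.0, 32.5, 32.0 and 25.9 CPM of Meg3. TgGRK5-MI replicates had 54.7, 75.1, 21.1, 37.3 and 31.2 CPM. Replicates 1 and 2 were the highest in each group and the groups overlapped throughout. Means were 52.7 ± 31.1 and 43.9 ± 21.3 CPM (SD, n = 5 each), with a log2 fold change of -0.26 (SE 0.42, 95% interval -1.23 to 0.70, adjusted p = 1 by edgeR, two-sided exact permutation p = 0.651). The direction was not firm, since the log2 fold change was 0.01 without NLC-MI replicate 2. The residual SD of Meg3 was 0.78 on the log2 scale, above 97.4% of the 500 genes of like level, whose median was 0.29.

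Meg3 belongs to the Dlk1-Dio3 domain. Of its 7 listed genes 5 were tested, and 0 were called at an adjusted p or an unadjusted p. Rian, a noncoding RNA that hosts snoRNAs downstream of Meg3, was at 64.2, 54.4, 25.9, 26 and 17.3 CPM in NLC-MI replicates 1 to 5 and 51.6, 60.8, 17.6, 41.5 and 38.6 CPM in the TgGRK5-MI replicates. Its log2 fold change was 0.16 (SE 0.39, adjusted p = 1 by edgeR). The ratio of Rian to Meg3 ran from 0.611 to 0.813 in NLC-MI and from 0.810 to 1.24 in TgGRK5-MI, meeting at the edges. Mirg, a microRNA host, had a log2 fold change of 0.15 (SE 0.42). The paternally expressed Dlk1, a Notch-like ligand 77665 bases from Meg3, was close to the floor at 0.349 ± 0.297 and 0.532 ± 0.352 CPM (SD, n = 5 each).

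H19 was as variable as Meg3. The gene (ENSMUSG00000000031, chr7:142575529-142578143, minus strand) is the host of miR-675. Both mature forms are shown because they are a part of H19 with a known mode of action, pairing to target mRNAs through the seed, bases 2 to 8, in capitals.
mmu-miR-675-5p: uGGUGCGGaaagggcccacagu
mmu-miR-675-3p: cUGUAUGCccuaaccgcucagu
They lie at chr7:142577112-142577133 and chr7:142577078-142577099 on the minus strand (RefSeq, GRCm38.p6) and were found within 3 of the 7 annotated H19 transcripts. The row of the hairpin gene, Mir675, had 0 counts in every library of this poly(A) kit, so the values below are of the host transcript. H19 stood at 157, 152, 89.8, 63.2 and 24.2 CPM in NLC-MI replicates 1 to 5 and at 84.3, 136, 62.7, 111 and 73.4 CPM in those of TgGRK5-MI. The lowest and the highest library were both NLC-MI, and all TgGRK5-MI libraries lay between them. Means were 97.2 ± 57.3 and 93.4 ± 29.6 CPM (SD, n = 5 each), with a log2 fold change of -0.06 (SE 0.42, 95% interval -1.02 to 0.90, adjusted p = 1 by edgeR, two-sided exact permutation p = 0.802). Its sign changed with the library left out, from -0.31 to 0.17. The residual SD was 0.85, above 97.6% of the 500 genes of like level.

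Igf2, the growth factor that shares enhancers with H19 and is made from the other parental copy, was 72623 bases away. It was at 21.6, 17.5, 54.8, 20.0 and 12.2 CPM in NLC-MI replicates 1 to 5 and at 11.7, 18.0, 18.8, 38.3 and 12.4 CPM in TgGRK5-MI. Igf2 was highest in NLC-MI replicate 3 and TgGRK5-MI replicate 4, which were not the highest for H19. Its log2 fold change was -0.34 (SE 0.42, adjusted p = 1 by edgeR), and the ratio of H19 to Igf2 was between 1.64 and 8.70 in NLC-MI and between 2.90 and 7.54 in TgGRK5-MI. Of the 20 imprinted growth genes listed 18 were tested, 0 were called at an adjusted or unadjusted p, and the median log2 fold change was 0.05. Cdkn1c, a maternally expressed inhibitor of the cell cycle, had a log2 fold change of 0.06 (SE 0.28), and Gnas, the gene of a stimulatory G protein and the highest of the list per length, one of 0.01 (SE 0.20).

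Miat was at or near the floor of the depth. The gene (ENSMUSG00000097767, chr5:112213228-112229395, minus strand) had 2, 11, 0, 6 and 2 counts in NLC-MI replicates 1 to 5 and 8, 7, 2, 0 and 1 in the TgGRK5-MI replicates. In 6 of 10 libraries it had no more than 3 counts, it did not pass the filter, and a difference was not detectable at this depth. The repeats it is known for were in its annotated sequence: Miat-205, its longest transcript, has 11 copies of ACTAAC, 1.2 per kb, and the longest transcripts of the other 7 members have 0 to 4. Bases 4923 to 5072 of Miat-205, with the most copies for that length, are shown with the motif in capitals.
Miat-205: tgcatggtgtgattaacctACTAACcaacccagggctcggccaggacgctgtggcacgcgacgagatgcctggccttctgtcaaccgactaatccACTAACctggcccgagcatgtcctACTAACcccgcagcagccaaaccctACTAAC
The lincRNA gene Gm26953 on the opposite strand shares 2260 exon bases with Miat and had 1 count in all.

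Gas5 did not differ between the groups beyond the spread. Its gene (ENSMUSG00000053332, chr1:161034422-161038539, plus strand) holds 10 annotated snoRNA genes. RNAs of this kind begin with a run of pyrimidines, which ties their translation and decay to growth signals, and the first 60 bases of the noncoding transcript Gas5-209 are shown with that run in capitals.
Gas5-209: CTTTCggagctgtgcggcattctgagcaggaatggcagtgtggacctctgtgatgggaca
Gas5 was at 101, 70.7, 143, 69.4 and 65.8 CPM in NLC-MI replicates 1 to 5. TgGRK5-MI replicates stood at 67.5, 87.6, 85.3, 158 and 112 CPM. The highest library of each group, NLC-MI replicate 3 and TgGRK5-MI replicate 4, were also the libraries with the fewest counts of their group, and the part of depth was not tested. Means were 90.1 ± 33.0 and 102 ± 35.0 CPM (SD, n = 5 each), with a log2 fold change of 0.18 (SE 0.27, 95% interval -0.44 to 0.80, adjusted p = 1 by edgeR, two-sided exact permutation p = 0.556). Without TgGRK5-MI replicate 4 the log2 fold change was -0.03.

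Other snoRNA hosts were also mixed. Of 19 listed genes 16 were tested and 0 were called at an adjusted p under 0.10. At an unadjusted p under 0.05 in edgeR's test, Snhg3 was higher (6.89 ± 1.53 and 11.6 ± 3.76 CPM, SD, n = 5 each; log2 fold change 0.75) and Snhg11 lower (1.19 ± 0.617 and 0.507 ± 0.213 CPM; log2 fold change -1.15). Of all genes 1.77% were higher and 2.08% lower at that threshold. The median log2 fold change over the list was 0.10. Among 37 long noncoding RNAs with described roles, 23 were tested, 0 were called at an adjusted p under 0.10, and 1 was higher at an unadjusted p, Mhrt. Mhrt, an antisense RNA of the Myh7 locus that acts against hypertrophy in mice, was at 20.7, 25.2, 49.6, 28.7 and 54.8 CPM in NLC-MI replicates 1 to 5, and the TgGRK5-MI replicates had 103, 69.2, 113, 70.9 and 102 CPM, with no overlap. Such a separation with TgGRK5-MI higher was found for 0.584% of all genes. Exons of Mhrt share bases with those of Myh7 on the other strand, so its reads and those of Myh7 cannot be told apart where the kit does not mark strand. The other RNA of this list with a high level per length, 2900097C17Rik, had a log2 fold change of -0.30 (SE 0.21, adjusted p = 1 by edgeR).

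The members differed in how they varied from mouse to mouse within a group. For each of 21 pairs of the 7 members, deviations of log2 CPM from the group mean were correlated over 10 libraries and tested by exact two-sided permutation within groups, a measure that does not use the difference between the groups. Meg3 and H19 rose and fell together (r = 0.81, rho = 0.89, exact permutation p = 0.00431 and 0.00201, adjusted p = 0.0780 and 0.0423), and r was 0.74 without the 2 libraries farthest from the median of Meg3. Gm35850 ran against Meg3 (r = -0.83, rho = -0.75, exact permutation p = 0.00743 and 0.0296, adjusted p = 0.0780 and 0.207, r = -0.80 without the 2 farthest). These 2 pairs passed an adjusted p of 0.10 for r, and how often pairs of other genes do so was not counted. For depth beside the second pair, Gm35850 had, against the library total, r = -0.68 and rho = -0.79 (exact permutation p = 0.0552 and 0.0110, adjusted p = 0.182 and 0.0890 over the 56 relations described with the markers, r = -0.87 without the 2 farthest libraries) and Meg3 had r = 0.52 and rho = 0.61 (adjusted exact permutation p = 0.391 and 0.243, r = 0.78 without the 2 farthest). The part of depth in this pair and in the relation of Gm35850 to fibroblast markers was not tested. With any 1 library left out r stayed between 0.76 and 0.89 for the first pair and between -0.89 and -0.77 for the second. The adjusted p rose to as much as 0.350 for the first (past 0.10 without NLC-MI replicates 1, 2 or 5 or TgGRK5-MI replicates 2, 3 or 5) and 0.367 for the second (without NLC-MI replicates 1 or 2 or any TgGRK5-MI replicate). Another 3 pairs had an unadjusted exact permutation p under 0.05 for r, all with Malat1: 0.70 with Gm35850, -0.66 with Meg3 and -0.69 with H19 (adjusted p = 0.176 each).

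**Figure D3:**
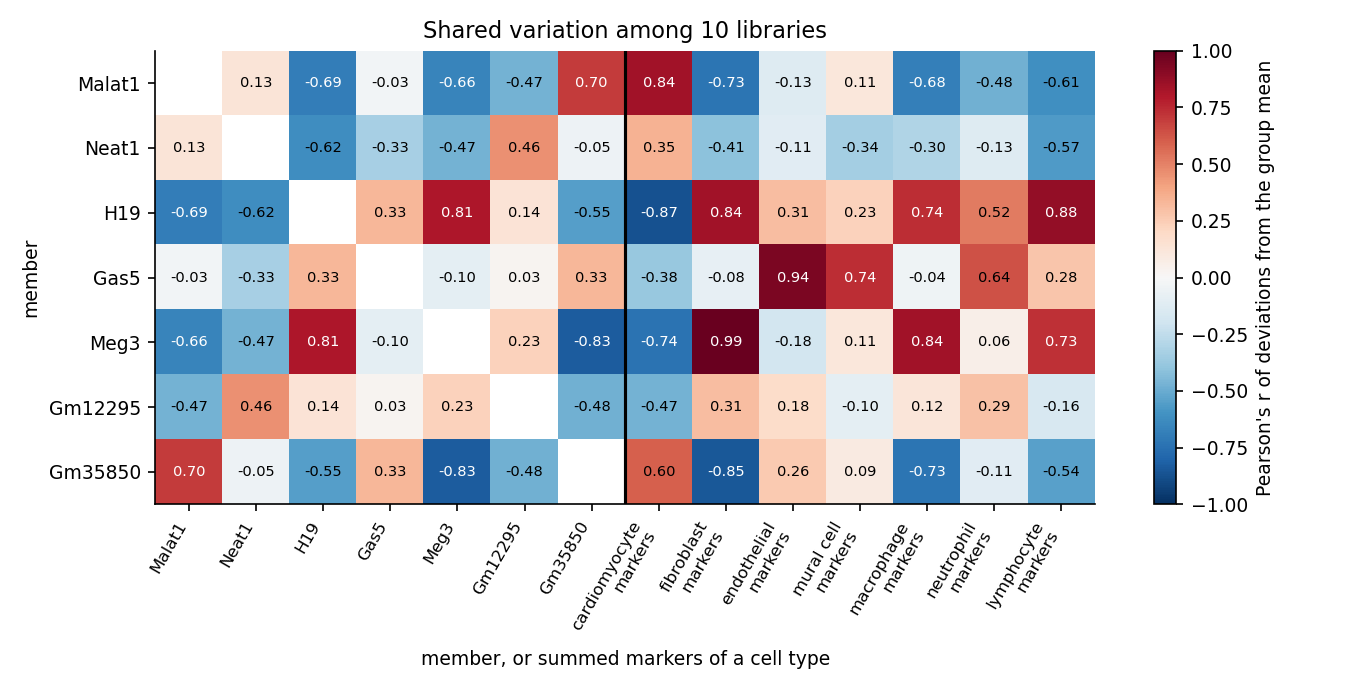
Pearson's r of the deviations of log2 CPM from the group mean over 10 libraries, for each pair of the 7 members (left block) and for each member with the summed markers of 7 cell types (right block), red for positive and blue for negative. Meg3 and H19 (0.81) share their positive values with fibroblast markers (0.99 and 0.84), Malat1 has its highest value with cardiomyocyte markers (0.84) and Gas5 with endothelial markers (0.94).

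Much of this variation ran alongside the cell type markers. The 7 members were set against 7 marker sums and the library total, 56 relations that were chosen after the data were seen. Of these, 11 had an adjusted p under 0.10 for r. The share of all genes that passes the same rule was not counted, so such relations are not shown to be particular to the members. Meg3 followed the fibroblast sum (r = 0.99, rho = 0.98, exact permutation p = 2.08e-04 and 2.78e-04, adjusted p = 0.0117 and 0.0156), with r = 0.98 without the 2 libraries farthest from the median. The sums were 23571 and 24098 CPM in NLC-MI replicates 1 and 2 and 24766 CPM in TgGRK5-MI replicate 2, and 4031 to 14153 CPM in the other 7 libraries. Among those 7 the relation was r = 0.96 and rho = 0.89 (exact permutation p = 0.0139 for r, of which 0.00694 is the smallest possible). Gas5 followed the endothelial sum (r = 0.94, rho = 0.84, exact permutation p = 6.25e-04 and 0.00701, adjusted p = 0.0175 and 0.0890, r = 0.80 without the 2 farthest). NLC-MI replicate 3 and TgGRK5-MI replicate 4, highest for Gas5 and the endothelial sum (1574 and 1633 CPM), were the shallowest libraries (7968779 and 9114469 counts). The part of depth in this relation was not tested. The associations of Meg3 with the fibroblast sum and of Gas5 with the endothelial sum kept an adjusted p under 0.10 for r in all 10 fits that left out 1 library. None of these fits leaves out both of the shallowest libraries.

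The other associations were less firm. H19 had r = 0.84 with fibroblast (adjusted exact permutation p = 0.0296), 0.88 with lymphocyte (0.0282) and -0.87 with cardiomyocyte markers (0.0272), and lymphocyte markers summed to no more than 6.11 CPM. Malat1 had r = 0.84 with cardiomyocyte (rho = 0.71, adjusted exact permutation p = 0.0408 and 0.146) and -0.73 with fibroblast markers (0.0947 for r). The first was 0.55 without the 2 libraries farthest from the median. NLC-MI replicate 5 and TgGRK5-MI replicate 3 had the highest values of both measures. Gm35850 had r = -0.85 with fibroblast markers (rho = -0.82, adjusted exact permutation p = 0.0467 and 0.0890), and among the 7 libraries with lower sums r was -0.74 (exact permutation p = 0.0972). Meg3 also had 0.84 with macrophage and -0.74 with cardiomyocyte markers, and Gas5 had -0.79 with the library total (adjusted exact permutation p = 0.0947 each), the last falling to -0.13 without the 2 farthest. Each of these associations lost its adjusted p under 0.10 in 2 or more of the 10 fits that left out 1 library. Neat1 and Gm12295 had none. CPM values of one library share its total, and the part of that and of the cell mixture in these relations was not tested. With the fibroblast sum as a covariate, a fit added after the data were seen, the log2 fold changes were 3.10 for Gm35850, -1.27 for Gm12295, -0.24 for Malat1, -0.76 for Neat1, -0.23 for Meg3, 0.08 for H19 and 0.18 for Gas5.

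**Figure D4:**
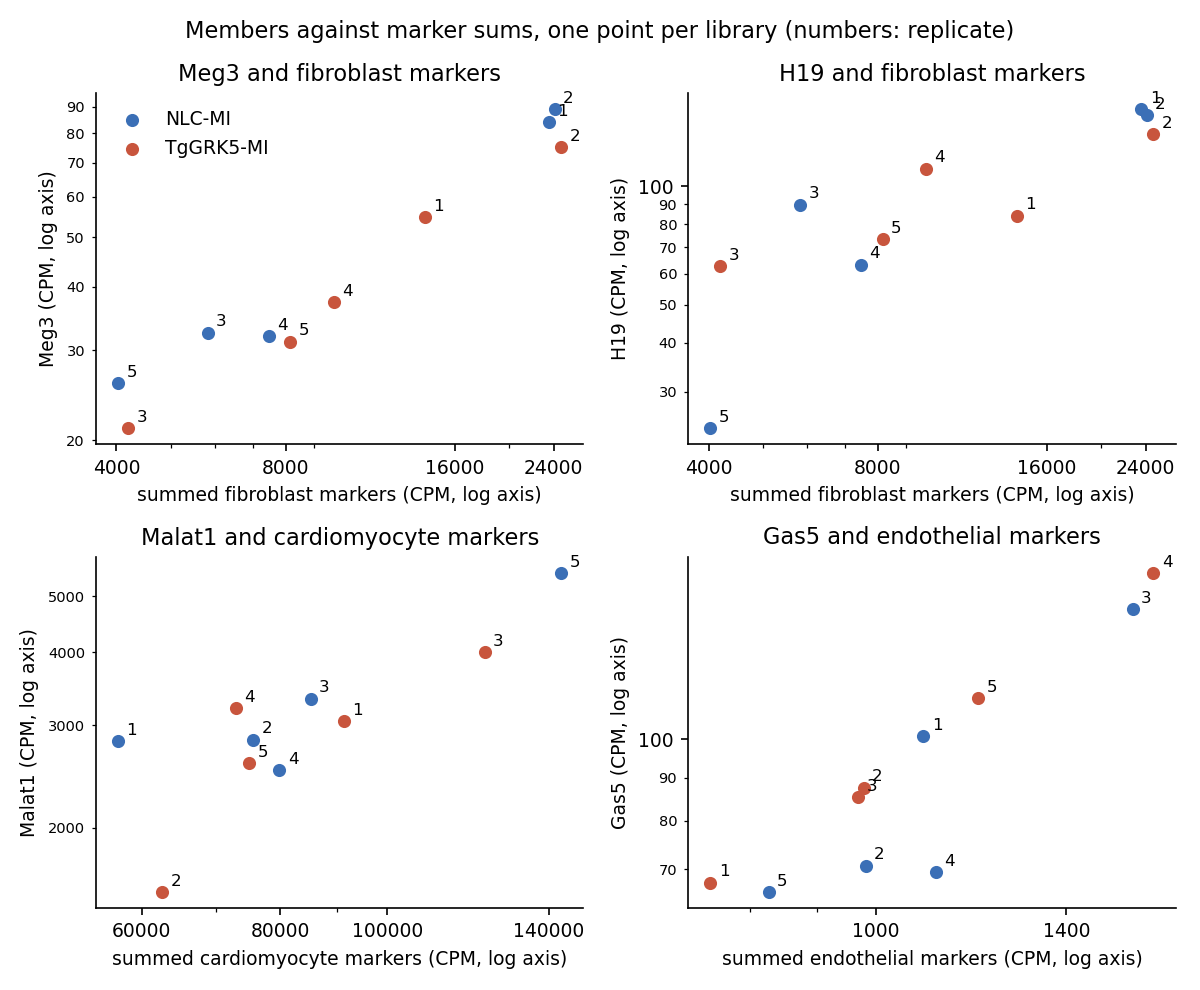
CPM of Meg3, H19, Malat1 and Gas5 against the summed CPM of fibroblast, cardiomyocyte or endothelial markers (log axes), with one point per library numbered by replicate, NLC-MI in blue and TgGRK5-MI in red. Meg3 rises along the fibroblast sum in both groups (21.1 to 89.0 CPM over 4031 to 24766 CPM), and NLC-MI replicate 3 and TgGRK5-MI replicate 4 are highest for both Gas5 and the endothelial sum.

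The genes whose deviations were most like those of a member, of 15231 compared over the 10 libraries, are given as a description without a test, since the top of so many is high by selection and all share the same libraries. For Meg3 they were Srpx, Ror2 and Antxr1 (r = 0.99 each), and for H19 Inpp5b, Dock2 and Zfp423 (0.98 each). Malat1 had Gm31166 and 2210418O10Rik (0.97 each) among its nearest. Neat1 was nearest to a pair of other long noncoding RNAs, Firre and E130317F20Rik (0.92 each), and then Plin4 (0.91), a lipid droplet protein. For Gas5 they were Calm2 and Cyp2j9 (0.97 each) and Gm45705 (0.96). Gm35850 was nearest to Rmdn2 (0.98), Rnf13 and Commd3 (0.97 each), and Gm12295 to Gm37309, Tanc1 and Rtel1 (0.94 each).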

How the data were processed

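The authors prepared cardiomyocyte RNA of 10 mice, 5 a group, with the Illumina TruSeq RNA Library Prep Kit v2. The authors deposited whole-number counts per Ensembl gene, not normalized. The submitters' processing notes name Bowtie2, RSEM 1.2.31, DESeq2 and mm10, without roles, so the deposited counts may be rounded estimates, and reads shared between overlapping genes may have been split by the program. The annotation version and the strand setting are not given in the sources used here.

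Symbols, positions and exon lengths came from GENCODE M21 on GRCm38 (51596 of 51789 identifiers matched), and promoter and microRNA sequences from RefSeq on GRCm38.p6. In R 4.3.3, edgeR 4.0.16 normalized the counts with TMM. Of 28506 genes above 0, filterByExpr kept 15232, on which the groups were tested by quasi-likelihood F tests, with p-values adjusted by Benjamini and Hochberg's procedure, at an adjusted p under 0.10 or an unadjusted p under 0.05. Long noncoding genes were those of the annotated types lincRNA, antisense, processed transcript, bidirectional promoter, sense intronic and sense overlapping, among others. Log2 CPM used a prior count of 2. Intervals (95%) use the t distribution with 8 degrees of freedom and the standard error of the fit. The members and lists were chosen with earlier results of these data known. Named genes were the members, their neighbours and genes sharing exons, the 3 genes most like each, listed genes at an unadjusted p under 0.05 or the 2 highest per length, and the 5 long noncoding genes with the smallest p. Myocd, Igf2, Rian, Mirg, Dlk1, Nono, Sfpq and Cdkn1c were added as partners after their values were seen.

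Alternatives were RLE factors, library size alone, DESeq2 1.42.0 and limma-voom with quality weights for each sample (limma 3.58.1, called limma-voom below). Others were a minimum of 10 counts in every library, no filter, a prior count of 0.5, length of the longest transcript, a replicate block, and each library left out. Chosen after seeing the data were the fit of the 7 deepest libraries, the fibroblast marker covariate and the relations with marker sums. The code was tested on simulated data. Results for some items are left out.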

Additional observations from a re-analysis of the deposited data

Results flagged for a closer look

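In 14 groups of 5 libraries, the 7 tested members in each group, Dixon's test for a sample far from the others singled out 2, and chance alone gives about 1 in 20 groups. Gm12295 was at 9.85 CPM in NLC-MI replicate 4, where the other 4 libraries of the group lay between 5.24 and 6.15 CPM. Malat1 was at 5479.7 CPM in NLC-MI replicate 5, with the others between 2512 and 3331 CPM. NLC-MI replicate 5 also had the highest cardiomyocyte marker sum, 143600.2 CPM, and the lowest fibroblast sum, 4031 CPM, and the part of these in the Malat1 value was not tested.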

How the results depend on the processing

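The genes called at an adjusted p under 0.10, 8 higher and 4 lower in TgGRK5-MI, became 42 and 27 with DESeq2, 41 and 9 with limma-voom, 19 and 9 with the fibroblast sum as a covariate, 5 and 1 in the 7 deepest libraries, 13 higher with library size alone or no filter and 4 higher with at least 10 counts in every library. Leaving out 1 library gave 2 to 7 higher and 1 to 3 lower. Long noncoding genes called higher, 1 in the main test, were 4 with DESeq2 (and 1 lower, Gm12295), 4 with the covariate, 9 with limma-voom, 3 with library size alone, 0 in the 7 deepest libraries and 0 with at least 10 counts in every library, a filter that Gm35850 does not pass. The members among them are Gm35850 (higher) and Gm12295 (lower), and calls of either are a description since both were chosen on this comparison. The count of members called higher was 0 in the 7 deepest libraries and with at least 10 counts in every library. With 1 library left out it was 0 to 1 (0 without NLC-MI replicates 1, 2 or 4 or TgGRK5-MI replicates 1, 3, 4 or 5). DESeq2 called 1 member lower. Among the listed long noncoding RNAs, 1 was called with DESeq2, limma-voom, library size alone and the covariate, and the other lists stayed at 0 in all alternatives. Pairs of members that vary together, 2 in the main test, were 0 to 4 with 1 library left out, and associations with marker sums, 11, were 2 to 12.

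Gm35850, Gm12295, Malat1 and Neat1 kept their direction in every alternative run. The log2 fold change of Meg3 was 0.01 without NLC-MI replicate 2, that of Gas5 -0.03 without TgGRK5-MI replicate 4, and that of H19, -0.06, was 0.08 with the covariate and 0.17, 0.16, 0.05 and 0.02 without NLC-MI replicates 1 and 2 and TgGRK5-MI replicates 3 and 5. With 1 library left out their ranges were -0.55 to 0.01 for Meg3, -0.03 to 0.41 for Gas5 and -0.31 to 0.17 for H19. The cause was not tested. The replicate block gave 5 higher and 3 lower genes and 0.15 for H19. The numbers were not taken to pair the mice, since same-numbered libraries had correlations of 0.0717, 0.662, 0.381, -0.341 and 0.0848. Depth limits Miat, with 0 to 11 counts, and to a lesser degree Gm35850 in NLC-MI, with 8 to 15.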
